A study of Macaca mulatta with 6 samples.

Results

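AP-1 is a family of transcription factors whose subunits bind DNA in pairs through a basic region and a leucine zipper. The 10 genes examined here were chosen by symbol: FOS, FOSB, FOSL1, FOSL2, JUN, JUNB, JUND, ATF3, BATF and MAFF. A row was present for 9 of the 10 among the 32386 rows of the count table. No row carried the symbol JUN, which was therefore not analysed here. All 9 passed the filter on low counts and were tested, each from a single row.

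RNA was sequenced from 6 rhesus macaque granulocyte-macrophage colonies (CFU-GM), 3 labelled TET2 uniallelic (TET2 UA, genotype TET2+/-) and 3 labelled TET2 wild type (WT). TET2 is a dioxygenase that starts the removal of methyl marks from cytosines. Each colony grew for 14 days in MethoCult Enriched medium from a single CD34+ bone marrow cell, and its genotype was read from its own DNA. In both groups the marrow was taken 15 months after autologous transplantation of mobilized CD34+ cells treated with CRISPR/Cas9, so the WT colonies come from the same procedure. The UA mutations were predicted, not shown, to cause loss of function, and the number of animals behind the colonies is not stated, so the spread behind each p-value is that of these libraries and may be technical.

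FOS proteins do not pair stably with themselves and bind DNA with a JUN partner, while JUN proteins can also pair with each other. FOS, FOSB, JUNB and ATF3 are immediate-early or early response genes, transcribed within minutes to hours of growth factor, cytokine or stress signals. In myeloid cells the family is known for its part in monocyte and macrophage differentiation. ATF3, BATF and MAFF lack the usual activation domain, and can restrain transcription or act with other partners.

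Library totals ranged from 6334264 to 17684447 counts in UA and from 10574104 to 25485143 in WT. TET2 itself had 237.8, 224.6 and 229.5 CPM (a gene's share of its library's counts, scaled to a common depth with TMM factors) in UA replicates 1 to 3, against 79.3, 92.8 and 109.1 CPM in WT replicates 1 to 3. This level does not check the labels, since the edited allele was not read. The UA libraries varied less among themselves than the WT libraries, with a biological coefficient of variation of 0.105 in UA and 0.311 in WT. Much of the WT spread involved replicate 1, the deepest library. Chi-square per gene (squared differences over those of counting error, which grow with depth) was 85.1 and 81.8 between it and WT replicates 2 and 3. Between WT replicates 2 and 3 it was 12.15. Each UA pair still differed by more than the counting error of reads. PCR copies count as reads here, so that difference may be technical. Granulocyte markers were present in both groups, with MPO at 16740 CPM in UA and 810.4 CPM in WT, and ELANE at 3111 CPM in UA and 94.2 CPM in WT. Of the monocyte markers, CD14 had 21.7 CPM in UA and 1147 CPM in WT, LYZ 7600 CPM in UA and 464 CPM in WT, and CSF1R 149 CPM in UA and 130.0 CPM in WT. Markers of other cell types differed too, in a comparison where 66% of all genes tested were called, 34.6% higher and 31.4% lower. The 5 stromal markers summed to 915 to 947 CPM in UA and 109 to 125 CPM in WT, with 4 called higher and 1 lower. The 5 endothelial markers summed to 391 to 402 CPM in UA and 36.0 to 58.7 CPM in WT, all called higher. The 5 megakaryocyte markers summed to 723 to 741 CPM in UA and 416 to 464 CPM in WT, with 3 called higher and 1 lower. The 3 mast cell and eosinophil markers summed to 1325 to 1441 CPM in UA and 22.9 to 30.4 CPM in WT, all called higher, with EPX at 877 CPM in UA and 2.90 CPM in WT. The 5 lymphoid markers summed to 112 to 128 CPM in UA and 220 to 270 CPM in WT, with 1 called higher and 3 lower of 4 tested. CD3E, of T cells, was at 0 counts in WT, no other marker of these lists was at 0 counts in a whole group, and their part in the results on AP-1 genes was not tested.

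Among the 9 AP-1 genes, FOSB, ATF3, FOSL2, JUND, MAFF and FOS were higher in UA, BATF was lower, and JUNB and FOSL1 did not pass the test (edgeR quasi-likelihood test, Benjamini-Hochberg adjusted p under 0.05 over all genes tested). The differences ran from 8.12-fold higher for FOSB to 11.95-fold lower for BATF. Thus 7 of 9 were called, in a comparison where 66% of all 13768 genes tested were called, 34.6% higher and 31.4% lower. The 3 UA libraries all lay above the 3 WT libraries for 7 of the 9 and all below for 1. Over all genes tested the groups did not overlap for 73.2%, with UA above for 39.2% and below for 34%. Without regard to direction, the counts of the family were near those shares, whereas 66.7% of the 9 genes were called higher. The 9 genes were chosen with results known, so their split by direction is a description. The median log2 fold change, UA over WT, was 0.72 for the 9 genes and 0.12 for all genes tested. In these bulk samples fewer cells of a type and less RNA per cell cannot be told apart.

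**Figure D1:**
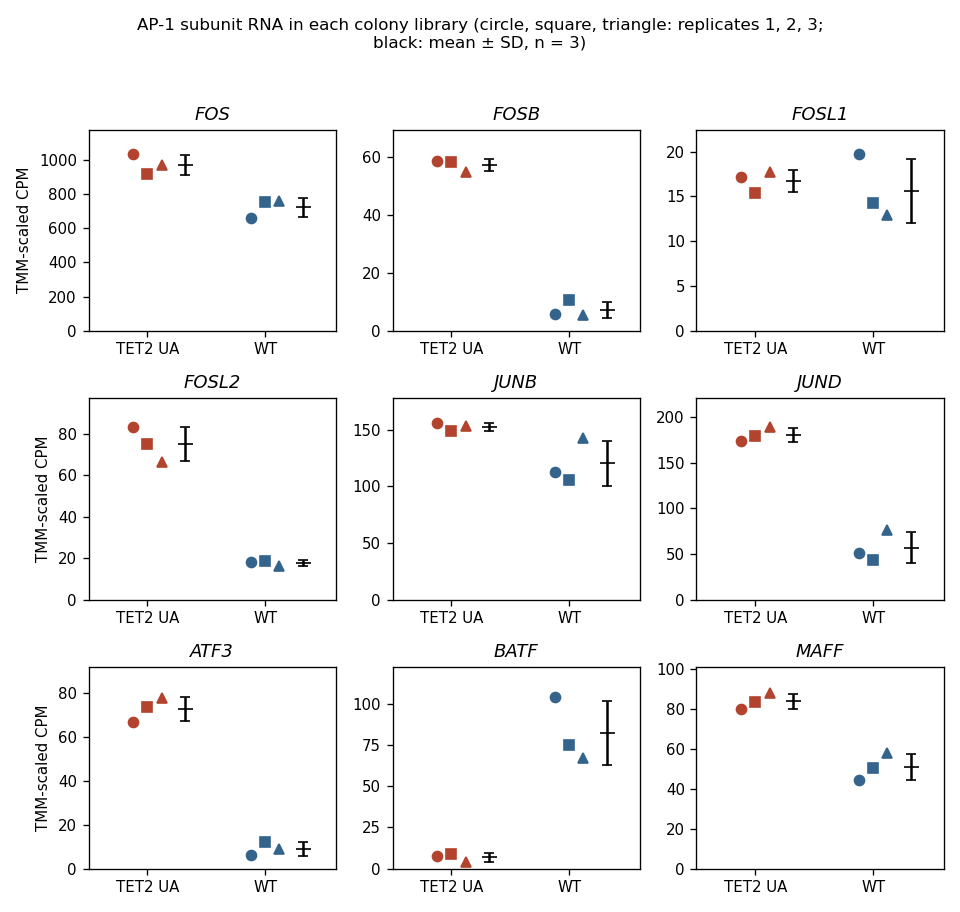
RNA level of each AP-1 gene (TMM-scaled CPM, vertical axes from 0) in the 3 TET2 UA and 3 WT colony libraries, 1 symbol per library, with the mean ± SD (n = 3) in black. FOSB, FOSL2, JUND and ATF3 stood well above the WT libraries in every UA library, BATF stood far below, and FOSL1 overlapped.

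The FOS subunits did not move alike. FOS, the prototype of the family, had 1035, 918 and 969 CPM in UA replicates 1 to 3, against 660.0, 756 and 758 CPM in WT replicates 1 to 3. All 3 UA libraries were above all 3 WT libraries, but by little: FOS averaged 974 ± 58.4 CPM in UA and 725 ± 55.9 CPM in WT (SD, n = 3 each). Its log2 fold change was 0.43 (SE 0.13, edgeR's adjusted p = 0.0156), a 1.34-fold difference with a 95% interval of 1.10 to 1.65. FOS was not called without UA replicate 1 (0.38, edgeR's adjusted p = 0.0952), without UA replicate 3 (0.43, edgeR's adjusted p = 0.0658) or with the UA libraries summed to 1 sample (0.47, edgeR's adjusted p = 0.27). This summed comparison takes all its spread from the WT libraries.

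FOSB, a FOS paralog whose splice forms include the long-lived truncated protein DeltaFosB, had 58.6, 58.6 and 55.1 CPM in UA replicates 1 to 3, against 5.62, 10.5 and 5.30 CPM in WT replicates 1 to 3. The groups were far apart, and WT replicate 2 was the highest of the WT libraries. In raw counts FOSB had 1081, 609 and 373 in UA and 123, 110 and 63 in WT. The log2 fold change was 3.02 (SE 0.28, edgeR's adjusted p = 5.81e-06), an 8.12-fold difference with a 95% interval of 5.32 to 12.4. With the UA libraries summed it was 3.05 (edgeR's adjusted p = 0.00012). The counts do not separate the splice forms. The authors' deposited table puts FOSB at 40796025 to 40801381 of chromosome 19. The build is not stated there, and Mmul_8.0.1 is the one in the submitters' processing notes.

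FOSL2, also called FRA2, is a FOS-related subunit without the strong activation domain of FOS. It had 83.1, 75.3 and 66.6 CPM in UA replicates 1 to 3, against 17.95, 18.7 and 16 CPM in WT replicates 1 to 3. The WT libraries were close together and all well below UA. The difference was 4.27-fold (95% interval 3.23 to 5.65), a log2 fold change of 2.10 (SE 0.18, edgeR's adjusted p = 3.87e-06). Summing the UA libraries gave 2.16 (edgeR's adjusted p = 0.000425).

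FOSL1, or FRA1, is the other such subunit and is often a target of AP-1 itself. It had 17.1, 15.4 and 17.7 CPM in UA replicates 1 to 3, against 19.7, 14.2 and 13.0 CPM in WT replicates 1 to 3. The groups overlapped, with WT replicate 1 the highest of all 6 libraries. The log2 fold change was 0.09 (SE 0.24, edgeR's adjusted p = 0.747), and its 95% interval, -0.43 to 0.62, leaves room for a 1.53-fold rise. Without WT replicate 3 its sign turned, to -0.03.

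The JUN subunits also differed in the size of their change. JUND, a JUN protein that resting cells already make, had 174, 179 and 189 CPM in UA replicates 1 to 3, against 51.3, 43.9 and 75.9 CPM in WT replicates 1 to 3. Every UA library was more than double the highest WT library, which was replicate 3. JUND averaged 181 ± 7.80 CPM in UA and 57.0 ± 16.7 CPM in WT (SD, n = 3 each), a 3.17-fold difference (95% interval 2.31 to 4.34). The log2 fold change was 1.66 (SE 0.21, edgeR's adjusted p = 4.3e-05), and with the UA libraries summed it was also 1.66 (edgeR's adjusted p = 0.00227). The authors' deposited table puts JUND at 18296029 to 18297296 of chromosome 19.

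JUNB, a JUN protein with a weaker activation domain whose loss in mice leads to a myeloproliferative disease, had 156, 149 and 153 CPM in UA replicates 1 to 3. In WT replicates 1 to 3 it had 113, 106 and 143 CPM. The UA libraries were all above the WT ones, but WT replicate 3 came close to them. The log2 fold change was 0.34 (SE 0.16, edgeR's adjusted p = 0.0809), a 1.26-fold difference with a 95% interval of 0.992 to 1.61. JUNB passed the test without WT replicate 1 (0.30, edgeR's adjusted p = 0.0236), without WT replicate 3 (0.47, edgeR's adjusted p = 0.025) and in limma-voom's fit (0.31, adjusted p = 0.0246), among others. Its call therefore depended on the libraries and the tool. The authors' deposited table puts JUNB at 12738491 to 12739534 of chromosome 19.

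**Figure D2:**
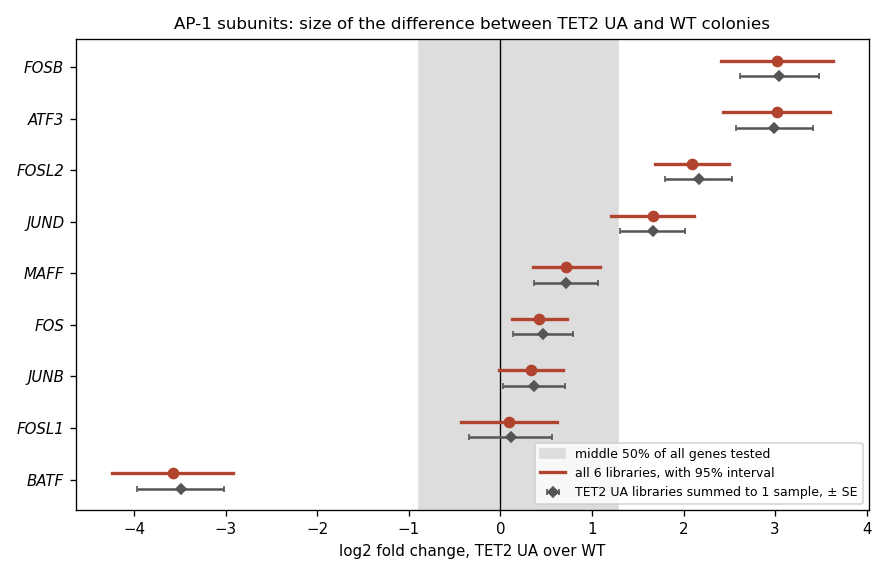
Log2 fold change, TET2 UA over WT, of the 9 AP-1 genes on the horizontal axis. Red points with 95% intervals are the fit over all 6 libraries, grey diamonds with ± SE the fit with the UA libraries summed to 1 sample, and the grey band, from -0.89 to 1.28, holds the middle 50% of all genes tested. The points of FOSB, ATF3, FOSL2 and JUND lie to the right of the band and BATF to its left, and FOS, JUNB, MAFF and FOSL1 lie inside it.

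The ATF, BATF and MAF subunits held the family's only fall. ATF3, a stress-induced bZIP protein that represses many inflammatory genes in mouse macrophages, had 67.0, 73.7 and 77.8 CPM in UA replicates 1 to 3. In WT replicates 1 to 3 it had 5.98, 12.3 and 9.01 CPM. As for FOSB, the groups were far apart and WT replicate 2 was the highest WT library. Raw counts were 1237, 766 and 527 in UA and 131, 129 and 107 in WT. The difference was 8.09-fold (95% interval 5.41 to 12.1), a log2 fold change of 3.02 (SE 0.26, edgeR's adjusted p = 4.26e-06). Summing the UA libraries gave 2.99 (edgeR's adjusted p = 0.000105). The authors' deposited table puts ATF3 at 153902993 to 153958050 of chromosome 1.

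BATF pairs with JUN proteins and, with IRF4 or IRF8, binds composite sites in mouse T cells and dendritic cells. It had 7.59, 8.75 and 3.84 CPM in UA replicates 1 to 3, against 104.2, 75.3 and 67.4 CPM in WT replicates 1 to 3. The groups did not overlap, with WT replicate 1 the highest and UA replicate 3 the lowest. In raw counts BATF had 140, 91 and 26 in UA and 2280, 788 and 800 in WT, so its UA values rest on few reads. Its log2 fold change was -3.58 (SE 0.30, edgeR's adjusted p = 3.24e-06), with a 95% interval of -4.24 to -2.92. Summing the UA libraries gave -3.49 (edgeR's adjusted p = 8.94e-05). Without regard to direction, its change was larger in size than that of 93.2% of all genes tested, and those of FOSB and ATF3 were larger than 90.8% and 90.7%. The authors' deposited table puts BATF at 137920294 to 137944642 of chromosome 7.

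MAFF is a small MAF protein of the wider bZIP superfamily, which also pairs with NRF2 and BACH proteins. It had 80.1, 83.6 and 87.7 CPM in UA replicates 1 to 3, against 44.5, 50.4 and 57.7 CPM in WT replicates 1 to 3. The UA libraries were all above the WT ones. The difference was 1.65-fold (95% interval 1.28 to 2.13), a log2 fold change of 0.72 (SE 0.17, edgeR's adjusted p = 0.00284). With the UA libraries summed the same log2 fold change, 0.72, was not called (edgeR's adjusted p = 0.116).

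The unequal changes show within each library, as counts of one subunit set against another, a measure that needs no scaling between libraries. These pairs were chosen after the values were seen and carry no test. FOSB had 5.66, 6.38 and 5.68 counts per 100 counts of FOS in UA replicates 1 to 3, and 0.851, 1.39 and 0.700 in WT replicates 1 to 3. FOSL2 had 8.04, 8.20 and 6.87 counts per 100 of FOS in UA, and 2.72, 2.48 and 2.11 in WT. FOSB and FOSL2 thus took a larger part beside FOS in every UA library than in any WT library. FOSL1, whose CPM overlapped between the groups, was not set against FOS.

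JUND had 112, 120 and 124 counts per 100 counts of JUNB in UA, and 45.3, 41.5 and 52.9 in WT. BATF had 4.36, 4.90 and 2.03 counts per 100 counts of JUND in UA, and 203, 172 and 88.8 in WT. FOSL1 had 20.6, 20.4 and 26.6 counts per 100 counts of FOSL2 in UA, and 109.7, 76.0 and 81.1 in WT. In each of these ratios the UA and WT libraries were separate, and WT replicate 3 was nearest to UA for BATF and JUND. Gene lengths were not used, so these ratios compare groups and not the abundance of the genes.

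**Figure D3:**
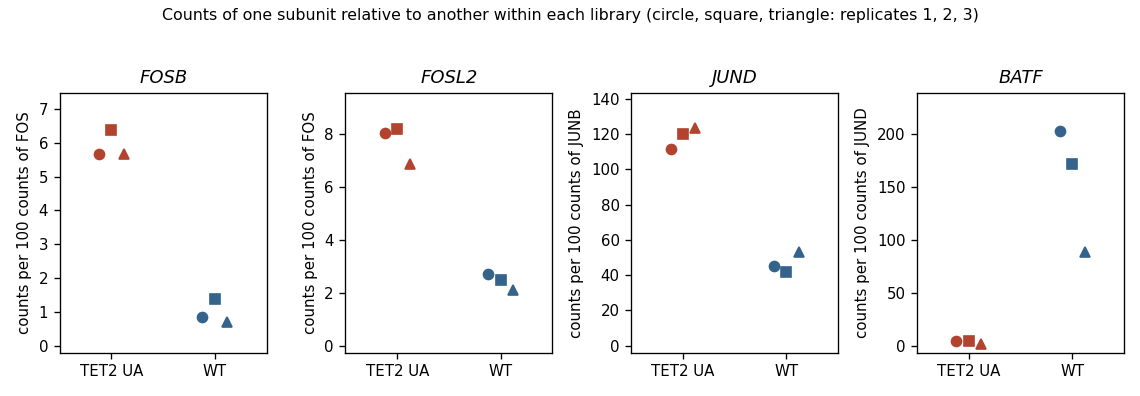
Raw counts of one AP-1 gene per 100 counts of another in each library (vertical axes), for the 3 TET2 UA and 3 WT libraries. FOSB and FOSL2 per FOS and JUND per JUNB are higher in all UA libraries, and BATF per JUND is 2.03 to 4.90 in UA and 88.8 to 203 in WT.

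The spread among libraries of one label also differed between the genes. Among WT libraries the SD was 40.9% of the mean for FOSB, 34.9% for ATF3 and 29.4% for JUND, but 7.71% for FOS and 8.04% for FOSL2. Among UA libraries it was 3.51% for FOSB, 7.47% for ATF3, 4.32% for JUND, 6.0% for FOS and 11.0% for FOSL2. BATF had the widest spread in UA, 38.2%, and 23.5% in WT. For 7 of the 9 genes the spread was wider in WT.

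The bZIP proteins outside the 10 genes went both ways: of 12 tested, 5 were higher, 3 lower and 4 did not pass, shares near those of all genes tested. Their median log2 fold change was 0.34. BACH2, a repressor known from B cells that pairs with small MAF proteins, had 207 CPM in UA and 2.78 CPM in WT, a log2 fold change of 6.23 (SE 0.20, edgeR's adjusted p = 1.22e-08). BACH1, the related heme-sensing repressor, rose by 2.90 (SE 0.23, edgeR's adjusted p = 2.62e-06). NFE2L2, which encodes the oxidative stress factor NRF2, had 80.5 CPM in UA and 356 CPM in WT (log2 fold change -2.14, edgeR's adjusted p = 1.05e-06). MAFG, a further small MAF, and ATF7 did not pass, with log2 fold changes of -0.33 and 0.07, the second of which turned to -0.10 without WT replicate 2.

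BATF3, the closest relative of BATF and needed for cross-presenting dendritic cells in mice, fell together with it. BATF3 had 3.63 ± 0.461 CPM in UA and 83.0 ± 31.2 CPM in WT (SD, n = 3 each), and the log2 fold change was -4.50 (SE 0.31, edgeR's adjusted p = 1.09e-06). The IRF partners of BATF moved the other way. IRF4 had 24.7 CPM in UA and 4.46 CPM in WT (log2 fold change 2.49, edgeR's adjusted p = 1.83e-05), and IRF8 had 336 CPM in UA and 76.7 CPM in WT (log2 fold change 2.13, edgeR's adjusted p = 1.17e-06). Of 4 Langerhans and dendritic cell markers, 3 were lower, as BATF was, and 1 higher, beside 31.4% lower and 34.6% higher of all genes tested. CD207, the langerin of Langerhans cells, had 3, 0 and 0 counts in UA and 1674, 845 and 1067 in WT, and CD1B, a lipid-presenting molecule, had 2.78 CPM in UA and 84.7 CPM in WT. FLT3, also a receptor of progenitors, had 267 CPM in UA and 53.7 CPM in WT. The part of such cells in the level of BATF was not tested.

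Of 16 genes of the MAP kinase pathways that act on AP-1 proteins, 4 were higher, 5 lower and 7 did not pass. This is a smaller share of calls than among all genes tested (66%), and the median log2 fold change was 0.08. MAP3K1 and MAP3K8, which feed the JNK and ERK branches, rose by 2.29 and 0.92 on the log2 scale (edgeR's adjusted p = 0.00147 and 0.000688). MAPK9, which encodes the JUN kinase JNK2, had 45.4 CPM in UA and 90.4 CPM in WT, and MAP2K2, which phosphorylates ERK, had 62.5 CPM in UA and 112 CPM in WT (log2 fold changes -0.99 and -0.84, edgeR's adjusted p = 0.000295 and 0.00142). RPS6KA1 and MAP2K3 had log2 fold changes of 0.08 and 0.38 and did not pass, although MAP2K3 was called without WT replicate 3 (0.61, edgeR's adjusted p = 0.0166). With the UA libraries summed, 2 of these kinase genes were called higher and 0 lower.

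The MAP kinase phosphatases, which end kinase signals, were represented by 4 tested genes of 9 listed. DUSP1, DUSP2, DUSP5 and DUSP6 had no row under these symbols, and DUSP8 did not pass the filter on low counts. DUSP10, which acts on JNK and p38, had 67.8 CPM in UA and 14.7 CPM in WT (log2 fold change 2.22, edgeR's adjusted p = 2.44e-05). DUSP16, a JNK phosphatase, had 20.4 CPM in UA and 3.06 CPM in WT (log2 fold change 2.75, edgeR's adjusted p = 0.00015). DUSP4 and DUSP7 did not pass, with log2 fold changes of 1.51 and -0.53, the second of which turned to 0.03 without WT replicate 3. DUSP4 was called with library size alone (1.69, edgeR's adjusted p = 0.0426) and in limma-voom.

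RNA of most factors that drive FOS-type promoters was higher in UA, with the exception of SRF itself. Of 6 serum response and ternary complex factor genes tested, 5 were higher, beside 34.6% of all genes tested. Their median log2 fold change was 1.65. This list was chosen with results known, so the count is a description. ELK4 and ELK3, ternary complex factors, had log2 fold changes of 2.90 and 1.63, and MRTFA and MRTFB, actin-regulated partners of SRF, of 1.67 and 1.93 (edgeR's adjusted p of 9.31e-06, 4.92e-05, 4.26e-05 and 0.00139). SRF had 17.1 CPM in UA and 22.5 CPM in WT, a log2 fold change of -0.41 (edgeR's adjusted p = 0.231). Without WT replicate 2 SRF was called lower (-0.67, edgeR's adjusted p = 0.0272).

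Of 9 coactivator and turnover genes tested, 6 were higher, 2 lower and 1 did not pass, with a median log2 fold change of 2.16. Over all genes tested the shares were 34.6% higher and 31.4% lower. CREBBP and EP300, the acetyltransferases that AP-1 recruits, had log2 fold changes of 2.92 and 2.24 (edgeR's adjusted p = 5.21e-07 and 2.89e-06). TRIB1, an adaptor of the COP1 ubiquitin ligase, had 129 CPM in UA and 9.51 CPM in WT (log2 fold change 3.77, edgeR's adjusted p = 3.39e-07). DET1, of the same ligase complex as COP1, had a log2 fold change of -0.45 and did not pass.

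Most immediate-early genes outside the family were higher in UA. Of 11 tested, 9 were higher and 2 lower, with a median log2 fold change of 2.54, where 34.6% of all genes tested were higher and 31.4% lower. ZFP36, which speeds the decay of cytokine mRNAs, had 565 CPM in UA and 66.2 CPM in WT (log2 fold change 3.09, edgeR's adjusted p = 6.76e-08). PPP1R15A, a phosphatase subunit induced by stress, and KLF6, a zinc finger factor, had log2 fold changes of 2.75 and 2.38 (edgeR's adjusted p = 1.82e-07 and 2.45e-07). MYC had 75.5 CPM in UA and 336 CPM in WT (log2 fold change -2.15, edgeR's adjusted p = 8.93e-07).

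Such genes also respond to handling, as do inducible heat shock genes, of which HSPA1A, HSPA1B and HSP90AA1 were not analysed here. Of 5 heat shock genes tested, 1 was higher and 4 lower, beside 34.6% and 31.4% of all genes tested. Their median log2 fold change was -1.81. DNAJB1, an inducible co-chaperone, had a log2 fold change of 0.97 (edgeR's adjusted p = 9.59e-05). HSPH1, also inducible by stress, went the other way, with -0.74 (edgeR's adjusted p = 0.000928). HSPA8, HSP90AB1 and HSPE1, which unstressed cells also make, had -1.81, -2.18 and -3.29 (edgeR's adjusted p = 1.79e-06, 1.09e-06 and 1.88e-06). The 8 mitochondrially encoded genes took 0.730% to 0.739% of counts in UA libraries and 0.918% to 1.35% in WT libraries. How colonies were handled was not tested.

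Genes that textbooks list as AP-1 targets went both ways. Of 17 tested, 6 were higher, 9 lower and 2 did not pass, with a median log2 fold change of -0.74. Among all genes tested, 34.6% were higher and 31.4% lower. CCL2, a monocyte chemokine, had 11.2 CPM in UA and 3400 CPM in WT (log2 fold change -8.23, edgeR's adjusted p = 4.19e-08). MMP9, a gelatinase, and PLAUR, the urokinase receptor, had log2 fold changes of -3.04 and -2.55 (edgeR's adjusted p = 1.84e-06 and 4.91e-06). HMOX1, heme oxygenase, which NRF2 activates and BACH1 represses, had 63.3 CPM in UA and 1.74 CPM in WT (log2 fold change 5.19, edgeR's adjusted p = 5.91e-08). SPP1, osteopontin, and MMP14 did not pass, with log2 fold changes of 0.10 and -0.27. Their values moved with the setting. SPP1 was called higher without WT replicate 1 (0.46, edgeR's adjusted p = 0.00791) and in limma-voom (0.42, adjusted p = 0.0149), but had -0.15 without WT replicate 3 and -0.03 with libraries thinned to the smallest total. MMP14 had 0.67 without WT replicate 3.

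**Figure D4:**
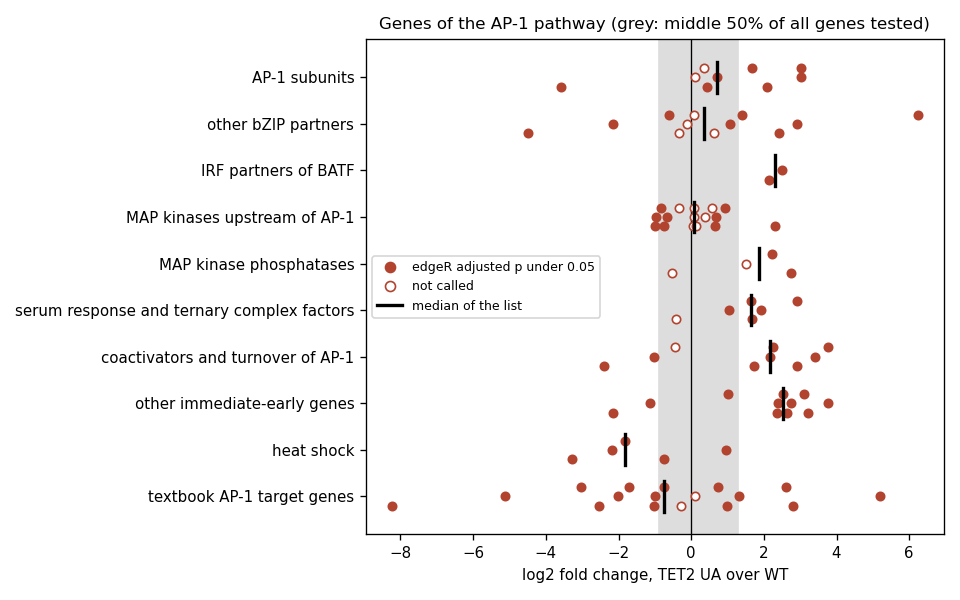
Log2 fold change, TET2 UA over WT (horizontal axis), of each tested gene of the AP-1 family and of 9 related gene lists. Filled points were called, open points were not, black bars are medians, and the grey band holds the middle 50% of all genes tested. Immediate-early genes and coactivators have medians of 2.54 and 2.16, MAP kinases one of 0.08, and AP-1 targets one of -0.74.

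The 3 genes nearest to FOS in pattern over the 6 libraries, by Euclidean distance between log2 CPM values centred on each gene's mean, among 9336 genes of at least 5 CPM, were LAMP1, ZNF639 and GRB10. Their distances were 0.109, 0.126 and 0.126 log2 units. Their log2 fold changes were 0.45, 0.40 and 0.38, which the choice by distance fixes near that of FOS. LAMP1 and ZNF639 were called (edgeR's adjusted p = 0.0162 and 0.0341), but LAMP1 lost its call without any one UA library, and both lost it with the UA libraries summed. ZNF639 lost it in 8 settings in all. GRB10 was not called (0.114), except with library size alone (edgeR's adjusted p = 0.0485).

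The authors' deposited table of differential expression lists 7 of the 9 genes and could not be matched to these libraries. In the authors' deposited table FOSB has a log2 fold change of -2.12 and BATF one of 1.38, both opposite in sign to the counts. The other 5 of the 7 genes have the same sign as here. Which samples the authors' deposited table compares, and in which direction, is not stated. Its mean normalized count was 84.9 for JUNB, whose lowest count here was 1037, and for 5 of the 7 genes it lay below every count of the 6 libraries. Over all genes called here and listed in the authors' deposited table, 30.9% had the same sign. Its fold changes were therefore not used.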

How the data were processed

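Per the labels' protocols, colony RNA was made into cDNA with the SMART-Seq V4 kit and into Nextera XT libraries. These mark neither strand nor molecule, so reads of overlapping or antisense genes mix and PCR copies count as reads. Mmul_8.0.1 and bcl2fastq appear in the submitters' processing notes. The sources used here do not name an aligner or a counter. Raw counts per gene were deposited by the authors. They also deposited a table of their own comparison, with a mean signal (normalized counts), log2 fold changes, a statistic (score) and p-values, of which only symbols, positions and values credited to it were used.

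Symbols came from the row name for 2 of the 9 genes, from the authors' deposited table for 5 and from a separate gene name table for 2. In the related lists, ATF4, MAP2K7, COP1, EGR3, IER2, IER3 and CXCL8 also had no row under these symbols and were not analysed here. The test was edgeR 4.0.16 under R 4.3.3 (quasi-likelihood, robust=TRUE, label as the only term, TMM, filterByExpr with minimum count 10 and minimum total 15). P-values of all 13768 genes tested were adjusted together (Benjamini-Hochberg), with calls made under 0.05. The SE is the size of the log2 fold change over the square root of F. Before TMM scaling, 3 counts (the limit that a count of 0 allows, for counting error only) equal 0.118 CPM at the largest library total and 0.474 CPM at the smallest.

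The fit was tested on simulated data with few changed genes, balanced in direction, and the same spread in both groups. The real libraries differ in these respects, so that run does not vouch for the calls here. The genes, lists and tests were chosen with earlier results of these data known. Named genes are the 9 members, up to 4 called genes of smallest p and 2 uncalled genes of highest CPM per list, leading cell type markers, and the 3 genes nearest to FOS in pattern. HSPH1 was added beside this rule, without its values under the alternatives. A gene that the rule names is not reported here. The rule also asked for those nearest to JUN, which was not analysed here. Alternatives were other scalings and filters, DESeq2 1.42.0, limma-voom (limma 3.58.1), a replicate block, a sum of the UA libraries, thinning, and leaving out each library.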

Additional observations from a re-analysis of the deposited data

How the results depend on the processing

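FOSB, FOSL2, JUND, ATF3 and BATF kept their direction and their call under all 15 alternatives. Their log2 fold changes, UA over WT, ranged from 2.85 to 3.38, 2.02 to 2.26, 1.499 to 1.92, 2.78 to 3.29 and -3.79 to -3.34, and these ranges include every setting with a library left out. The others were less stable. Leaving out each library in turn gave 0.37 to 0.47 for FOS, 0.24 to 0.47 for JUNB, 0.64 to 0.81 for MAFF and -0.034 to 0.31 for FOSL1, whose sign turned without WT replicate 3. With the UA libraries summed, FOS (0.47, edgeR's adjusted p = 0.27) and MAFF (0.72, edgeR's adjusted p = 0.116) were no longer called. JUNB was called with library size alone (0.50, edgeR's adjusted p = 0.025), with a filter of 5 CPM in 3 libraries (0.39, edgeR's adjusted p = 0.0477) and in limma-voom (0.31, adjusted p = 0.0246). The cause was not tested.

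Over all genes, 9091 were called, 7916 to 9949 with a library left out, and 5360 with the UA libraries summed (2950 higher and 2410 lower), where fewer libraries enter the fit. Of the genes of the 9 related lists, 25 were called lower, and 14 with the UA libraries summed. Scaling by library size alone moved the median log2 fold change of all genes from 0.12 to 0.28, and the no-filter fit, which adds genes of few counts, to 0.91. Fitting the replicate number as a block gave 8939 called genes and changed no call among the AP-1 genes. Same-numbered UA and WT libraries did not deviate together (correlations of 0.0129 to 0.022). Of 672 values of 45 other named genes under the alternatives, 645 kept their sign and side of the threshold, 14 lost it (LAMP1 and ZNF639 in most of these), 7 gained it and 6 changed sign. The sign changes were in uncalled genes. MMP14 turned to 0.038 with the replicate block, and ranged from -0.619 to 0.667 with a library left out. ATF7 ranged from -0.104 to 0.234, DUSP7 from -0.799 to 0.031 and SPP1 from -0.148 to 0.464 with a library left out, and SPP1 was -0.03 after thinning. The smallest UA library, with 6334264 counts, limits BATF most, at 26 counts.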
